A study of Homo sapiens with 12 samples.

Results

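The glycolysis and hypoxia response genes described here are a list of 40 named genes. They cover glucose and lactate transport, the enzymes of glycolysis, the kinases that steer glucose carbon, the oxygen sensing machinery and other genes that low oxygen switches on. They were found by gene symbol among the 38434 named genes of the deposited count tables, and all 40 were present in both tables. mRNA was sequenced from LK2-maspin, LK2-ctrl, LC-AI-maspin and LC-AI-ctrl cells, with 3 libraries in each of the 4 groups. The human cell lines LK-2 and RERF-LC-AI both derive from lung squamous cell carcinoma (LUSC). The maspin cells carry a lentiviral vector for maspin, the serpin encoded by SERPINB5, together with the green fluorescent protein ZsGreen, and the ctrl cells carry ZsGreen alone. In every group the clones of 1 line that survived blasticidin were pooled, and the basal medium differed between the lines. The sources used here do not say whether the 3 libraries of a group came from separate cultures, so the p-values measure only the spread between these libraries, which may be technical.

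Glycolysis splits glucose into pyruvate in the cytosol, and lactate dehydrogenase and the monocarboxylate transporters turn pyruvate into lactate and carry it out of the cell. The hypoxia-inducible factors consist of an oxygen-labile α subunit, HIF-1α (HIF1A) or HIF-2α (EPAS1), and the stable partner ARNT. With oxygen at hand, the prolyl hydroxylases PHD2 (EGLN1) and PHD3 (EGLN3) mark the α subunits for destruction by the VHL ubiquitin ligase. When oxygen falls the factors bind DNA at sites with the core letters ACGTG or GCGTG and raise glucose transporters, glycolytic enzymes, PDK1, BNIP3 and many other genes. The α subunits are controlled mainly as proteins, which mRNA levels do not show.

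The libraries held 39802246 to 54941357 counts of named genes in LK-2 cells and 50143577 to 65454432 in RERF-LC-AI cells. Levels are given as CPM, the counts per 1000000 counts of the library. Maspin mRNA (SERPINB5) reached 48.4 to 50.9 CPM in LK2-maspin and 1.87 to 2.02 CPM in LK2-ctrl cells, and 477 ± 37.9 CPM in LC-AI-maspin and 0.205 ± 0.0639 CPM in LC-AI-ctrl cells (SD, n = 3 each). All CPM values here are scaled by TMM factors. Of 9 squamous markers, 8 stayed under 10 CPM in every LK-2 library, the exception being SOX2 at 402 to 468 CPM in LK2-maspin and 521 to 564 CPM in LK2-ctrl cells. All 9 stayed under 10 CPM in every RERF-LC-AI library, so that of these markers only SOX2 stood above that level, and only in LK-2 cells. KRT5 had 5.62 to 9.08 CPM in LK2-maspin and 0.665 to 1.01 CPM in LK2-ctrl cells. Of 5 lung adenocarcinoma markers, 4 stayed under 10 CPM in every RERF-LC-AI library. The exception was KRT7, a simple epithelial keratin, at 156 to 163 CPM in LC-AI-maspin and 203 to 227 CPM in LC-AI-ctrl cells. Of 4 mesenchymal markers 1, CDH2, stayed under 10 CPM there, while VIM had 1488 to 1623 CPM in LC-AI-maspin and 1575 to 1708 CPM in LC-AI-ctrl cells. In LK-2 cells 2 of the 4 stayed under 10 CPM, VIM (at or below 0.945 CPM) and ZEB1. CDH2 had 294 to 366 CPM in LK2-maspin and 336 to 392 CPM in LK2-ctrl cells, and FN1 11.7 to 17.3 and 10.2 to 14.2 CPM. The part of these marker differences in the results below was not tested.

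In RERF-LC-AI cells 6 of the 40 genes fell with maspin and none rose, in a test over all genes with edgeR's quasi-likelihood F test and Benjamini–Hochberg adjusted p under 0.05. The 6 were SLC16A3, ADM, NDRG1, EPAS1, HK1 and PKM. Among all 25197 genes tested in this line, 6.53% were lower and 4.01% higher by the same rule. A mean over 8 CPM was reached by 33 of the 40 members and by 10475 of all genes, and by 35 members and 10787 genes in LK-2 cells. Shares of calls at that level were not counted. Over all genes TMM gave 1010 higher and 1645 lower, upper-quartile factors 1305 and 1388, and library size only 1408 and 1287, so that this split moved with the scaling. By unadjusted p under 0.05, 15 of the 40 were lower and 2 higher (11.5% and 9.32% of all genes). In DESeq2, which tested 37 of the 40, 9 were lower and 0 higher, against 1818 lower and 903 higher of its 15158 genes tested. The median log2 fold change of the 40 was −0.07, against 0.01 over all genes, and 27 of the 40 lay below 0.

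In LK-2 cells 1 of the 39 genes tested fell with maspin, ADM, and none rose. CA9 did not pass the filter on low counts there. Over all 26270 genes tested, 0.16% were lower and 0.373% higher. By unadjusted p under 0.05, 4 of the 39 were lower (ADM, LDHB, GAPDH and TPI1) and 2 higher (EPAS1 and PDK3), against 2.73% and 3.63% of all genes. DESeq2 likewise called ADM lower and 0 members higher, against 81 lower and 191 higher of its 22247 genes tested. With the replicate number as a block, 8 members were lower and 3 higher, against 497 lower and 693 higher of the 26270 genes. The labels do not say what an equal number shares. The rule chosen here for pairing by number, a set correlation in every equally numbered pair over all genes tested, was not met. Values with the block are therefore given as an alternative only. In the fit without the block the median log2 fold change was −0.07 against −0.00 over all genes, with 27 of 39 below 0. The plot of fold changes by role shows the members of each line side by side.

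**Figure D1:**
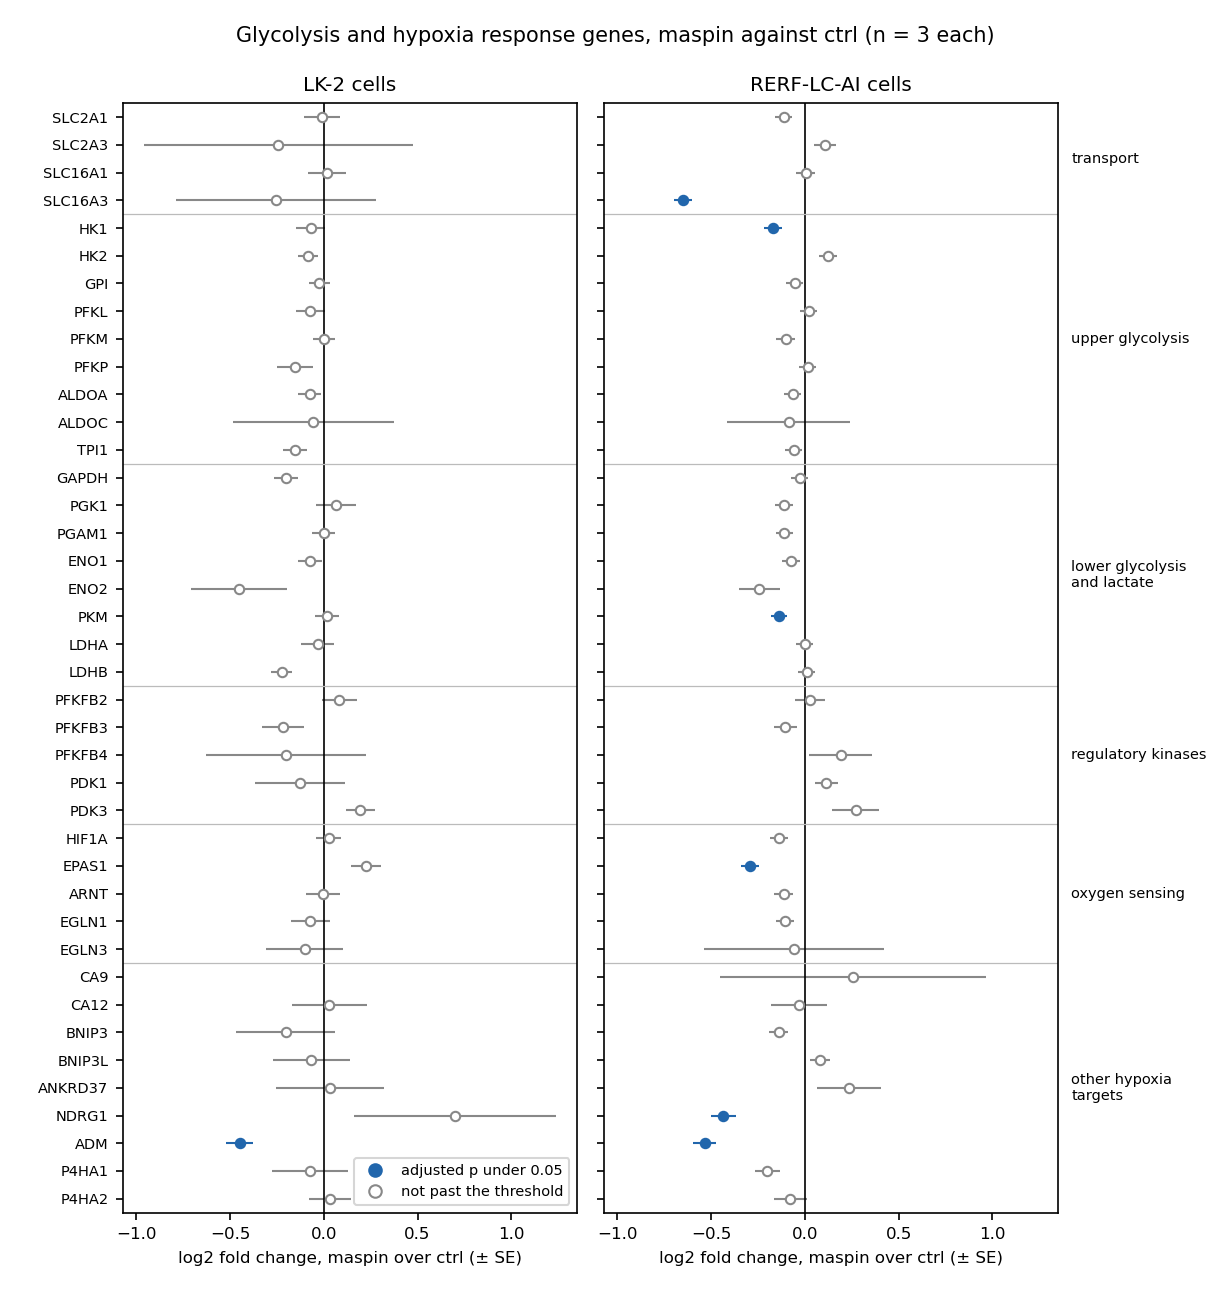
Log2 fold change of maspin over ctrl with its SE for each of the 40 genes (rows, by role) in LK-2 cells (left) and RERF-LC-AI cells (right), n = 3 libraries a group, from edgeR's quasi-likelihood fit. Filled points have an adjusted p under 0.05, which are ADM in LK-2 cells and 6 genes in RERF-LC-AI cells, all below 0. CA9 was not tested in LK-2 cells.

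ADM, which encodes the secreted vasodilator peptide adrenomedullin and is a classic HIF target, was the member called in both lines. It had 30.2, 32.4 and 28.5 CPM in LK2-maspin libraries and 39.8, 41.5 and 43.0 CPM in LK2-ctrl libraries. All LK2-maspin libraries lay below all LK2-ctrl libraries (log2 fold change −0.45, SE 0.07, adjusted p = 0.018 with edgeR). In RERF-LC-AI cells ADM had 88.8, 86.3 and 87.6 CPM in LC-AI-maspin and 109, 131 and 140 CPM in LC-AI-ctrl libraries. The LC-AI-maspin libraries were close to one another and all below the more spread LC-AI-ctrl libraries (−0.53, SE 0.06, adjusted p = 3.4e-07). The effect of maspin on ADM did not pass the test of a difference between the lines (−0.08, SE 0.11, adjusted p = 0.84 for the interaction). The call in LK-2 cells was lost without LK2-maspin replicate 1 (adjusted p = 0.055), 2 (0.077) or 3 (0.098) or without LK2-ctrl replicate 2 (0.14), with log2 fold changes of −0.50 to −0.40 over all alternatives, while that in RERF-LC-AI cells held under every alternative tried (highest adjusted p 2.9e-04).

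SLC16A3 encodes MCT4, the monocarboxylate transporter that exports lactate from glycolytic cells. It had 115, 106 and 112 CPM in LC-AI-maspin libraries and 184, 174 and 165 CPM in LC-AI-ctrl libraries. This was the fall with the smallest adjusted p among the 40 (log2 fold change −0.65, SE 0.05, adjusted p = 2.0e-10), with no overlap between the groups. SLC16A3 lies next to and overlaps CSNK1D in RefSeq, and the sources do not say whether the counting used strand, so that reads from the overlap cannot be told apart. In LK-2 cells SLC16A3 had 22.8, 64.7 and 96.6 CPM in LK2-maspin and 24.3, 60.6 and 135 CPM in LK2-ctrl libraries. There the libraries of either group spread over a wider range than the groups differ (−0.25, SE 0.53, adjusted p = 1.0). The interaction did not pass the test (−0.41, SE 0.57, adjusted p = 0.86) in this fit, whose SE takes in the wide spread of the LK-2 libraries.

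EPAS1, the HIF-2α subunit, was the single member whose response to maspin differed between the lines in the interaction test (1 of 40, lower in RERF-LC-AI cells, against 1.76% of the 28123 genes tested there, 0.402% higher and 1.35% lower). It had 120, 128 and 128 CPM in LC-AI-maspin and 161, 145 and 154 CPM in LC-AI-ctrl libraries. The groups did not overlap and EPAS1 fell with maspin (−0.29, SE 0.05, adjusted p = 1.1e-04). In LK-2 cells it had 45.4, 43.3 and 37.4 CPM in LK2-maspin and 36.7, 35.4 and 35.7 CPM in LK2-ctrl libraries. All LK2-maspin libraries lay above the LK2-ctrl libraries, but the difference was not called (0.23, SE 0.08, adjusted p = 0.54). It passed with the replicate number as a block in edgeR (0.22, adjusted p = 0.0064). The effect in RERF-LC-AI minus that in LK-2 cells was −0.52 on the log2 scale (SE 0.10, adjusted p = 0.0081), and it stayed past the threshold under every alternative tried (highest adjusted p 0.032). By unadjusted p under 0.05, 5 of the 40 passed the interaction test, 3 higher and 2 lower in RERF-LC-AI cells, against 5.68% and 6.82% of all genes. DESeq2 and the likelihood ratio test each called EPAS1 alone among the members.

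Stretches of the promoters of these 3 genes that hold the core letters of a HIF site are shown because their mRNAs carry the calls above. They come from the RefSeq promoter table of GRCh38.p14, while the authors mapped to GRCh38.p13. Each line gives 60 bases 5′ to 3′ on the gene's own strand, upstream of a listed start site, with matches to ACGTG or GCGTG on either strand in capitals (CACGT or CACGC where the match is on the opposite strand). The ADM stretch is chr11:10304943-10305002 on the plus strand, the SLC16A3 stretch chr17:82228947-82229006 on the plus strand and the EPAS1 stretch chr2:46297262-46297321 on the plus strand.
ADM: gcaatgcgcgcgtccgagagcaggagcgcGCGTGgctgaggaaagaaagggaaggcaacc
SLC16A3: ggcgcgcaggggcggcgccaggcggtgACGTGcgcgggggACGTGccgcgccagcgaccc
EPAS1: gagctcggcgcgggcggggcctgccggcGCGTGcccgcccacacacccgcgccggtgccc
The ADM and EPAS1 stretches hold 1 match each and the SLC16A3 stretch 2. Such a match is a description of the letters and not a shown binding site, and no binding was measured.

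NDRG1, a stress and hypoxia responsive gene of the N-myc downstream regulated family, had 37.4, 32.3 and 33.5 CPM in LC-AI-maspin and 50.7, 42.1 and 46.6 CPM in LC-AI-ctrl libraries. Every LC-AI-maspin library was below every LC-AI-ctrl library (−0.43, SE 0.07, adjusted p = 2.5e-05). LK-2 cells hardly expressed it, with 0.897, 1.93 and 3.95 CPM in LK2-maspin and 0.462, 1.31 and 2.40 CPM in LK2-ctrl libraries, and the groups overlapped (0.70, SE 0.54, adjusted p = 0.98). The interaction missed the threshold (−1.13, SE 0.47, adjusted p = 0.31) but passed it without LK2-maspin replicate 1 (−1.55, adjusted p = 0.040) or without LK2-ctrl replicate 3 (−1.74, adjusted p = 0.028). In a single fit of all 12 libraries the RERF-LC-AI calls of NDRG1 (adjusted p = 0.45) and SLC16A3 (0.50) were lost. That fit gives both lines 1 shared estimate of the spread for each gene, and the spread of these genes was far wider in LK-2 cells.

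HK1 and PKM fell by smaller amounts in RERF-LC-AI cells. HK1, the widely expressed hexokinase that traps glucose as glucose 6-phosphate, had 105, 103 and 98.4 CPM in LC-AI-maspin and 113, 117 and 114 CPM in LC-AI-ctrl libraries (−0.17, SE 0.05, adjusted p = 0.018). PKM, which encodes the pyruvate kinases of most tissues, had 2585, 2771 and 2623 CPM in LC-AI-maspin and 3003, 2908 and 2871 CPM in LC-AI-ctrl libraries (−0.14, SE 0.04, adjusted p = 0.042). The groups did not overlap for either gene. Both calls are fragile. HK1 was lost without LC-AI-maspin replicate 3 (adjusted p = 0.17), LC-AI-ctrl replicate 2 (0.058) or LC-AI-ctrl replicate 3 (0.083), and both in the fit of all 12 libraries (0.15 for HK1 and 0.20 for PKM). PKM was also lost with RLE factors (0.055) and without any 1 of 5 of the 6 libraries (0.090 to 0.24) other than LC-AI-maspin replicate 2. The counts do not separate the M1 and M2 isoforms of PKM.

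**Figure D2:**
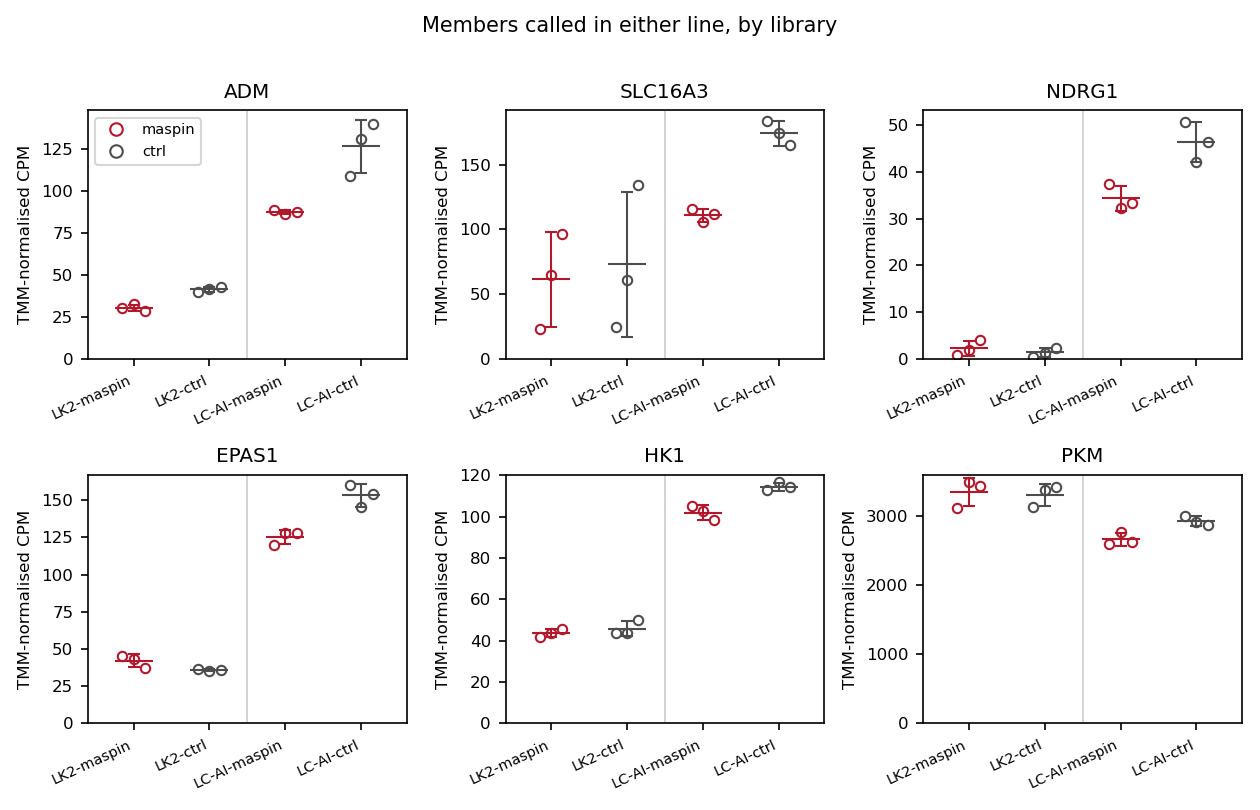
TMM-normalised CPM of the 6 genes called in RERF-LC-AI cells (ADM also in LK-2 cells), with 1 open circle for each library (maspin red, ctrl grey) and the mean ± SD of 3 libraries. In RERF-LC-AI cells every maspin library lies below every ctrl library for all 6 genes, while in LK-2 cells this holds for ADM alone and SLC16A3 spreads from 22.8 to 96.6 CPM in maspin and from 24.3 to 135 CPM in ctrl libraries.

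Of the other transporters on the list, SLC2A1 (GLUT1, the basal glucose carrier) had 149, 161 and 156 CPM in LC-AI-maspin and 172, 170 and 163 CPM in LC-AI-ctrl libraries. The maspin libraries were all below the ctrl libraries, but the difference was not called (−0.11, SE 0.05, adjusted p = 0.15). SLC2A3 (GLUT3, a high-affinity glucose carrier) averaged 43.9 ± 0.768 CPM in LC-AI-maspin and 40.8 ± 2.34 CPM in LC-AI-ctrl cells, without overlap (0.11, SE 0.06, adjusted p = 0.28). SLC16A1 (MCT1, which carries lactate either way) averaged 155 ± 5.34 CPM in LC-AI-maspin and 154 ± 9.73 CPM in LC-AI-ctrl cells. Thus of the lactate carriers among the members the MCT4 gene was called and the MCT1 gene was not, and the difference between their responses was not tested. In LK-2 cells SLC2A1 averaged 68.4 ± 6.67 CPM with maspin and 68.9 ± 8.48 CPM in ctrl, and SLC16A1 103 ± 10.9 and 102 ± 13 CPM (SD, n = 3 each).

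Among the 9 enzymes of upper glycolysis only HK1 was called, in RERF-LC-AI cells. HK2, the inducible hexokinase of many tumours, went the other way there, with 97.2, 95.2 and 94.5 CPM in LC-AI-maspin and 89.9, 84.9 and 88.6 CPM in LC-AI-ctrl libraries. The groups did not overlap, and HK2 missed the threshold (0.12, SE 0.05, adjusted p = 0.11) but passed it with upper-quartile factors (0.15, adjusted p = 0.029) and with library size only (0.16, adjusted p = 0.020). In LK-2 cells HK2 had 201, 200 and 196 CPM in LK2-maspin and 206, 214 and 213 CPM in LK2-ctrl libraries, also without overlap but in the opposite direction (−0.08, SE 0.05, adjusted p = 0.93). The phosphofructokinase genes PFKL, PFKM and PFKP, which commit sugar to glycolysis, had log2 fold changes of 0.02, −0.10 and 0.01 in RERF-LC-AI and −0.07, 0.00 and −0.15 in LK-2 cells. None of them was called, and the smallest of their adjusted p values was 0.24 for PFKM in RERF-LC-AI cells. TPI1, which interconverts the triose phosphates, had 835, 915 and 890 CPM in LK2-maspin and 919, 996 and 1021 CPM in LK2-ctrl libraries, not overlapping and not called (−0.15, SE 0.06, adjusted p = 0.67). With the replicate number as a block in edgeR, TPI1 (−0.15, adjusted p = 2.5e-04) and PFKP (−0.15, adjusted p = 0.012) passed the threshold in LK-2 cells.

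In lower glycolysis, GAPDH and LDHB had lower values in all LK2-maspin than in all LK2-ctrl libraries without being called. GAPDH, the dehydrogenase often used as a reference transcript, had 3276, 3635 and 3651 CPM in LK2-maspin and 3815, 4100 and 4249 CPM in LK2-ctrl libraries (−0.20, SE 0.06, adjusted p = 0.42). LDHB, the lactate dehydrogenase subunit of oxidative tissues, had 969, 996 and 1003 CPM in LK2-maspin and 1150, 1201 and 1119 CPM in LK2-ctrl libraries (−0.23, SE 0.05, adjusted p = 0.15). LDHB passed the threshold without LK2-ctrl replicate 3 (adjusted p = 0.035). With the replicate number as a block in edgeR, both GAPDH (−0.20, adjusted p = 5.3e-09) and LDHB (−0.23, adjusted p = 2.8e-08) passed it in LK-2 cells. In RERF-LC-AI cells both genes were close to 0 in log2 fold change, at −0.03 for GAPDH (adjusted p = 0.82) and 0.01 for LDHB (adjusted p = 0.95). LDHA, the subunit that favours lactate formation, averaged 808 ± 84.2 CPM in LK2-maspin and 827 ± 84.6 CPM in LK2-ctrl cells, and 523 ± 21.5 CPM in LC-AI-maspin and 523 ± 16.0 CPM in LC-AI-ctrl cells. PGAM1, the phosphoglycerate mutase, was lower in all LC-AI-maspin libraries (514, 556 and 536 CPM) than in all LC-AI-ctrl libraries (564, 595 and 574 CPM), and was not called (−0.11, SE 0.05, adjusted p = 0.15). GAPDH, PGAM1, LDHA, LDHB and several other glycolytic genes have near-identical processed copies in the genome, which could take part of their reads.

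None of the 5 regulatory kinases was called in either line. These are PFKFB2, PFKFB3 and PFKFB4, which set the level of fructose 2,6-bisphosphate, the activator of phosphofructokinase, and PDK1 and PDK3, which inhibit pyruvate dehydrogenase. By unadjusted p under 0.05, PDK3 alone passed, in both lines. PDK3 had 364, 432 and 426 CPM in LK2-maspin and 325, 377 and 365 CPM in LK2-ctrl libraries (0.19, SE 0.08, adjusted p = 0.68). It was a minor transcript in RERF-LC-AI cells, with 8.79, 6.13 and 6.63 CPM in LC-AI-maspin and 6.53, 5.63 and 5.63 CPM in LC-AI-ctrl libraries (0.27, SE 0.13, adjusted p = 0.21). The groups overlapped in both lines. With adjustment neither difference was called, nor did the likelihood ratio test or DESeq2 call any of the 5 kinases. With the replicate number as a block in edgeR, PDK3 (0.19, adjusted p = 2.1e-05) and PFKFB3 (−0.22, adjusted p = 6.4e-04) passed the threshold in LK-2 cells.

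The other oxygen sensing genes of the list were not called. In RERF-LC-AI cells HIF1A had 201, 220 and 206 CPM with maspin and 223, 240 and 228 CPM in ctrl libraries, not overlapping and just outside the threshold (−0.14, SE 0.05, adjusted p = 0.061). DESeq2 called it (−0.15, adjusted p = 0.028). ARNT (−0.11, adjusted p = 0.18) and EGLN1 (−0.11, adjusted p = 0.21) were likewise lower in every LC-AI-maspin than in every LC-AI-ctrl library without being called. EGLN3 stayed between 0.172 and 0.27 CPM in RERF-LC-AI and between 2.47 and 4.38 CPM in LK-2 libraries. In LK-2 cells HIF1A had 139, 146 and 135 CPM in LK2-maspin and 142, 144 and 127 CPM in LK2-ctrl libraries, which overlap (0.03, SE 0.07, adjusted p = 1.0).

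Apart from ADM and NDRG1, none of the other hypoxia targets among the members was called. BNIP3, a mitochondrial protein that promotes mitophagy, had 74.2, 73.4 and 70.6 CPM in LC-AI-maspin and 83.1, 76.9 and 80.4 CPM in LC-AI-ctrl libraries, without overlap (−0.14, SE 0.05, adjusted p = 0.070). P4HA1, a collagen prolyl 4-hydroxylase subunit, had 29.4, 26.6 and 32.2 CPM in LC-AI-maspin and 35.6, 31.5 and 34.3 CPM in LC-AI-ctrl libraries, which overlap (−0.20, SE 0.07, adjusted p = 0.060). Both genes were called by DESeq2 (adjusted p = 0.029 for BNIP3 and 0.047 for P4HA1). CA9, the cell surface carbonic anhydrase often used as a marker of hypoxic tumour cells, had 0 to 14 counts in any library of either line, at most 0.25 CPM. CA12 stayed between 1.55 and 3.27 CPM over all 12 libraries.

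Counting without a test of the fitted means, 13 of the 40 members were lower in every LC-AI-maspin than in every LC-AI-ctrl library and 3 higher (HK2, SLC2A3 and ANKRD37), against 13.2% lower and 11.9% higher among all genes tested. In LK-2 cells 5 of 39 were lower and 1 higher (EPAS1), against 5.53% and 6.37%. These shares too were taken over genes of all levels. EPAS1 and HK2 were without overlap in both lines and in opposite directions, and ADM alone was without overlap in both lines in the same direction.

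Within the LK-2 groups the libraries differed widely in many of these genes. Of the 39 members tested, 22 were lowest in replicate 1 and highest in replicate 3 of both LK2-maspin and LK2-ctrl cells, against 9.26% of all genes tested. Among genes with a mean over 8 CPM it was 19 of 35 members, against 13.1%. The opposite order, highest in replicate 1 and lowest in replicate 3, was seen for 1 of 39 members, SLC16A1, against 9.38% of all genes tested and 19.2% of those over 8 CPM. This pattern was noticed in the data and is given as a description without a test. Replicate numbers name libraries and have no order of their own, and no label says what equal numbers share.

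Known hypoxia inducible genes had the widest spread. SLC2A3 had 2.33, 8.31 and 15.4 CPM in LK2-maspin and 1.76, 6.63 and 22.5 CPM in LK2-ctrl libraries. Replicate 3 was 6.61 times replicate 1 in LK2-maspin and 12.7 times in LK2-ctrl cells. For SLC16A3 these ratios were 4.24 and 5.53, and for NDRG1 4.41 and 5.19, again with LK2-maspin named first. ALDOC, the brain-type aldolase, had 21.4, 45.1 and 67.5 CPM in LK2-maspin and 21.7, 37.2 and 80.3 CPM in LK2-ctrl libraries. PFKFB4 had 5.81, 12.1 and 16.1 CPM in LK2-maspin and 6.34, 9.36 and 23.4 CPM in LK2-ctrl libraries. BNIP3 had 60.9, 98.0 and 123 CPM in LK2-maspin and 69.5, 102 and 154 CPM in LK2-ctrl libraries. Each of these genes had its low value in replicate 1 and its high value in replicate 3 of both groups. PDK1, with 39.1, 58.7 and 71.3 CPM in LK2-maspin and 41.2, 57.9 and 85.5 CPM in LK2-ctrl libraries, and ENO2, the neuronal enolase, with 27.3, 37.6 and 48.6 CPM in LK2-maspin and 32.7, 47.4 and 75.3 CPM in LK2-ctrl libraries, had the same order.

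In all, 10 members had a replicate 3 over 1.5 times replicate 1 in both LK-2 groups, against 4.11% of all genes and 1.07% of those over 8 CPM. They were SLC2A3, SLC16A3, NDRG1, ALDOC, PFKFB4, BNIP3, PDK1, ENO2, BNIP3L and P4HA1. In RERF-LC-AI cells 0 of 40 did so (1.35% of all genes), and 2, ARNT and PFKFB2, were lowest in replicate 1 and highest in replicate 3 of both groups (2.38%). By role the order was held in LK-2 cells by 6 of 8 other hypoxia targets, 4 of 5 regulatory kinases, 4 of 8 genes of lower glycolysis, 3 of 5 oxygen sensing genes, 2 of 4 transporters and 3 of 9 genes of upper glycolysis. HIF1A did not share it, with replicate 3 at 0.971 times replicate 1 in LK2-maspin and 0.897 times in LK2-ctrl cells, nor did ADM, at 0.943 and 1.08 times. Library totals did not follow the order, being 53148368, 39802246 and 46215576 in LK2-maspin and 48208188, 54941357 and 44278486 in LK2-ctrl libraries 1 to 3.

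A separate list of 40 other hypoxia targets from outside the 40 members showed the same order. Of its 39 genes tested in LK-2 cells, 26 were lowest in replicate 1 and highest in replicate 3 of both groups, against 9.26% of all genes tested. Replicate 3 was over 1.5 times replicate 1 in both groups for 11 of the 39, against 4.11%. STC1, a secreted glycoprotein, had 0.766, 3.88 and 6.29 CPM in LK2-maspin and 0.609, 2.79 and 8.87 CPM in LK2-ctrl libraries. VEGFA, the vascular endothelial growth factor, had 30.0, 47.6 and 59.5 CPM in LK2-maspin and 32.1, 42.1 and 67.3 CPM in LK2-ctrl libraries. In RERF-LC-AI cells 0 of the 40 genes of that list had the order, against 2.38% of all genes tested there. The plot of levels by library sets these spreads beside those of ADM, HIF1A, EPAS1 and SLC16A1.

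**Figure D3:**
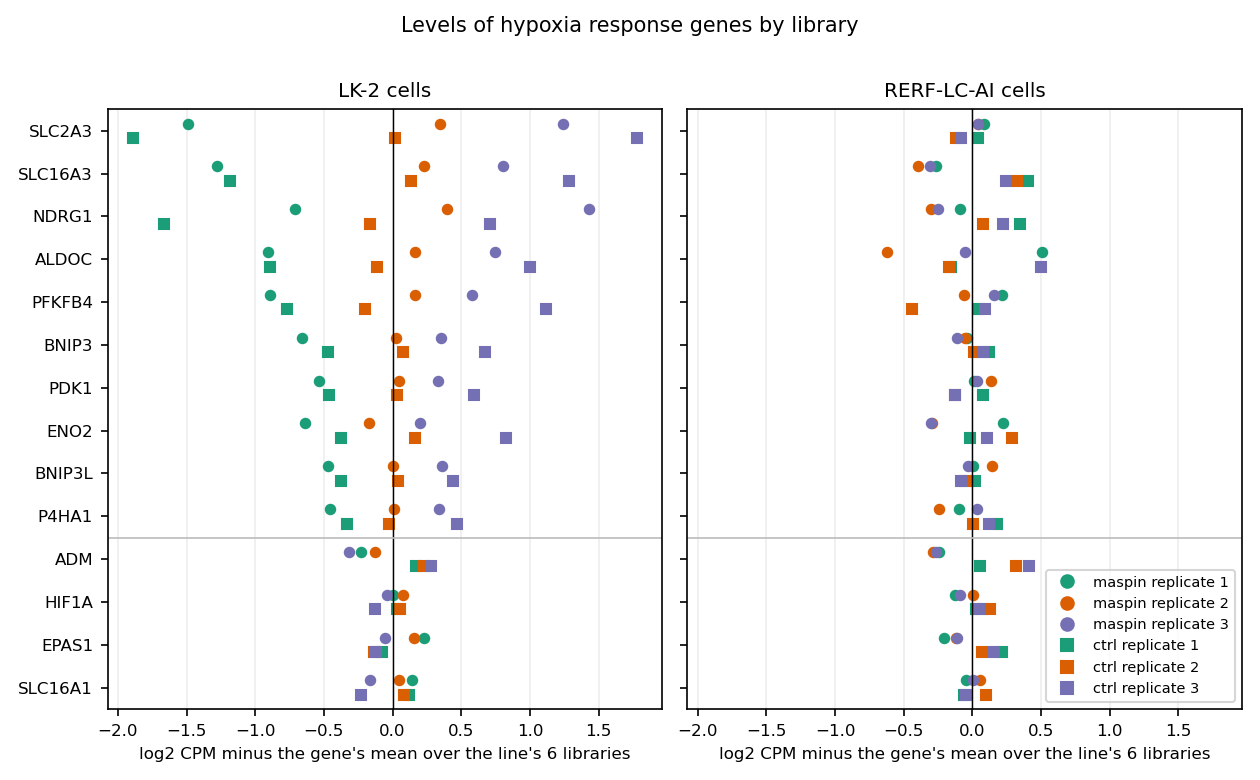
Log2 CPM of 14 genes in each library, minus the gene's mean over the 6 libraries of its line, in LK-2 cells (left) and RERF-LC-AI cells (right). Circles are maspin and squares ctrl libraries, and colours give the replicate number. Above the grey line are the 10 genes with replicate 3 over 1.5 times replicate 1 in both LK-2 groups, from SLC2A3 (6.61 times in maspin and 12.7 times in ctrl cells) down to P4HA1, and no such separation by number is seen in RERF-LC-AI cells.

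The spread within groups sets the SE of the LK-2 comparison. For members over 8 CPM the median ratio of the highest to the lowest library was 1.20 in LK2-maspin and 1.23 in LK2-ctrl cells, against 1.11 and 1.14 over all genes at that level. In RERF-LC-AI cells it was 1.09 with maspin and 1.07 in ctrl, against 1.08 and 1.09 over all genes. The SE of the log2 fold change in LK-2 cells was accordingly 0.72 for SLC2A3, 0.53 for SLC16A3 and 0.43 for ALDOC and PFKFB4, but 0.05 to 0.07 for ADM, HK2, GPI and LDHB.

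Promoters of 4 of the 10 genes with replicate 3 over 1.5 times replicate 1 in both LK-2 groups are shown. These genes and stretches were picked by hand among those that hold matches, so they are examples only. PFKFB4 spread more than BNIP3, ENO2 and PDK1 (2.77 times in LK2-maspin and 3.69 times in LK2-ctrl cells) and is not shown. Its promoter held 1 GCGTG. The stretches are drawn as above, from the same table, and lie at chr17:28576896-28576955 on the minus strand for ALDOC, chr10:131982014-131982073 on the minus strand for BNIP3, chr12:6914435-6914494 on the plus strand for ENO2 and chr2:172556030-172556089 on the plus strand for PDK1.
ALDOC: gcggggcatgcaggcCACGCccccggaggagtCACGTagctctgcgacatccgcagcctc
BNIP3: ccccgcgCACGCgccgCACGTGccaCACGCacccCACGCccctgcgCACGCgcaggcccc
ENO2: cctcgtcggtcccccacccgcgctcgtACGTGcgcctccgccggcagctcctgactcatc
PDK1: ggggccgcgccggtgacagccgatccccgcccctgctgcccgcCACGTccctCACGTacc
The BNIP3 stretch holds 6 matches, with its CACGTG counted once on each strand, the ALDOC and PDK1 stretches 2 each and the ENO2 stretch 1. Of the 40 members 35 had a promoter in the table, and SLC2A3, SLC16A1, PFKFB2, BNIP3L and NDRG1 had none. Over the 250 bases upstream of the start, 37.1% of the members' 62 promoters held ACGTG on either strand, against 20.2% of the promoters of protein-coding genes and 18.5% of all promoters in the table. For GCGTG alone the shares were 32.3%, 38.3% and 32.2%, so that here the members lay below protein-coding genes. With either core allowed they were 58.1%, 49.3% and 43.2%. ACGTG is also part of the E-box CACGTG, and the members' promoters were richer in G and C (mean 65.3%) than those of protein-coding genes (60.6%) or of all genes (57.2%), so the shares are a description of letters. Of the 28 promoters of members with the shared order in LK-2 cells 71.4% held either core, against 47.1% of the 34 for the other members, and the mean GC content was 69.4% and 61.9%. Many genes have several promoters there. Counted by gene, 15 of 18 (83.3%) held either core in any promoter, against 13 of 17 (76.5%). The shared order was itself picked from these data, and members without a promoter are left out.

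Levels between isozymes were compared per length, as mean CPM per kb of the canonical GENCODE transcript. The tables of the lines were made separately, so values of the lines are set side by side without a test. ENO1 was the leading enolase in both lines, at 1015 ± 64.5 CPM per kb in LK2-maspin and 1068 ± 61.2 in LK2-ctrl cells, and 1207 ± 76.0 in LC-AI-maspin and 1269 ± 42.6 in LC-AI-ctrl cells (SD, n = 3 each). ENO2 came to 16.5 ± 4.64 CPM per kb in LK2-maspin and 22.6 ± 9.43 in LK2-ctrl cells, and to 5.61 ± 1.22 in LC-AI-maspin and 6.60 ± 0.726 in LC-AI-ctrl cells. LDHB exceeded LDHA in all groups, with 759 ± 13.8 against 360 ± 37.6 CPM per kb in LK2-maspin and 479 ± 21.3 against 233 ± 9.61 in LC-AI-maspin cells. The ctrl cells had the same order, so the isozyme that led a pair was the same with and without maspin.

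The lines differed in which isozyme led. HK2 was above HK1 in LK-2 cells, with 35.4 ± 0.421 against 12.1 ± 0.533 CPM per kb in LK2-maspin and 37.5 ± 0.742 against 12.7 ± 1.02 in LK2-ctrl cells. In RERF-LC-AI cells HK1 was above HK2, with 28.3 ± 0.948 against 17 ± 0.244 CPM per kb in LC-AI-maspin and 31.8 ± 0.538 against 15.6 ± 0.467 in LC-AI-ctrl cells. PFKL was the highest of the phosphofructokinase genes in LK-2 cells (75.1 ± 4.99 CPM per kb with maspin and 78.9 ± 6.94 in ctrl) and PFKP in RERF-LC-AI cells (96.3 ± 2.98 with maspin and 95.3 ± 2.11 in ctrl). In LK-2 cells PFKM (49.1 ± 1.31 with maspin) and PFKP (47.5 ± 5.03 with maspin) did not differ beyond their spread. PDK3 was far above PDK1 in LK-2 cells, at 234 ± 21.4 against 4.01 ± 1.15 CPM per kb in LK2-maspin and 204 ± 15.6 against 4.37 ± 1.59 in LK2-ctrl cells. In RERF-LC-AI cells the PDK genes were close, at 4.13 ± 0.813 for PDK3 against 2.97 ± 0.134 CPM per kb for PDK1 in LC-AI-maspin and 3.41 ± 0.299 against 2.74 ± 0.231 in LC-AI-ctrl cells. The listed PDK1 transcript is long (14072 bases), so that its level per kb would be higher if a shorter form prevailed.

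Among the HIF subunits HIF1A and ARNT did not differ beyond their spread in LK-2 cells, with 35.6 ± 1.40 and 33.2 ± 3.38 CPM per kb in LK2-maspin and 34.9 ± 2.34 and 33.3 ± 3.67 in LK2-ctrl cells. EPAS1 was lower there, at 8.16 ± 0.807 in LK2-maspin and 6.97 ± 0.132 CPM per kb in LK2-ctrl cells. In RERF-LC-AI cells the order was HIF1A (53.0 ± 2.50 with maspin, 58.4 ± 2.17 in ctrl), EPAS1 (24.3 ± 0.928 with maspin, 29.7 ± 1.47 in ctrl) and ARNT (16.2 ± 0.692 with maspin, 17.5 ± 0.540 in ctrl). So EPAS1 stood above ARNT in RERF-LC-AI and below it in LK-2 cells, with and without maspin. SLC2A1, SLC16A1 and SLC16A3 lay within 20.2 to 28.1 CPM per kb in the means of both LK-2 groups, with SLC2A3 well below them.

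**Figure D4:**
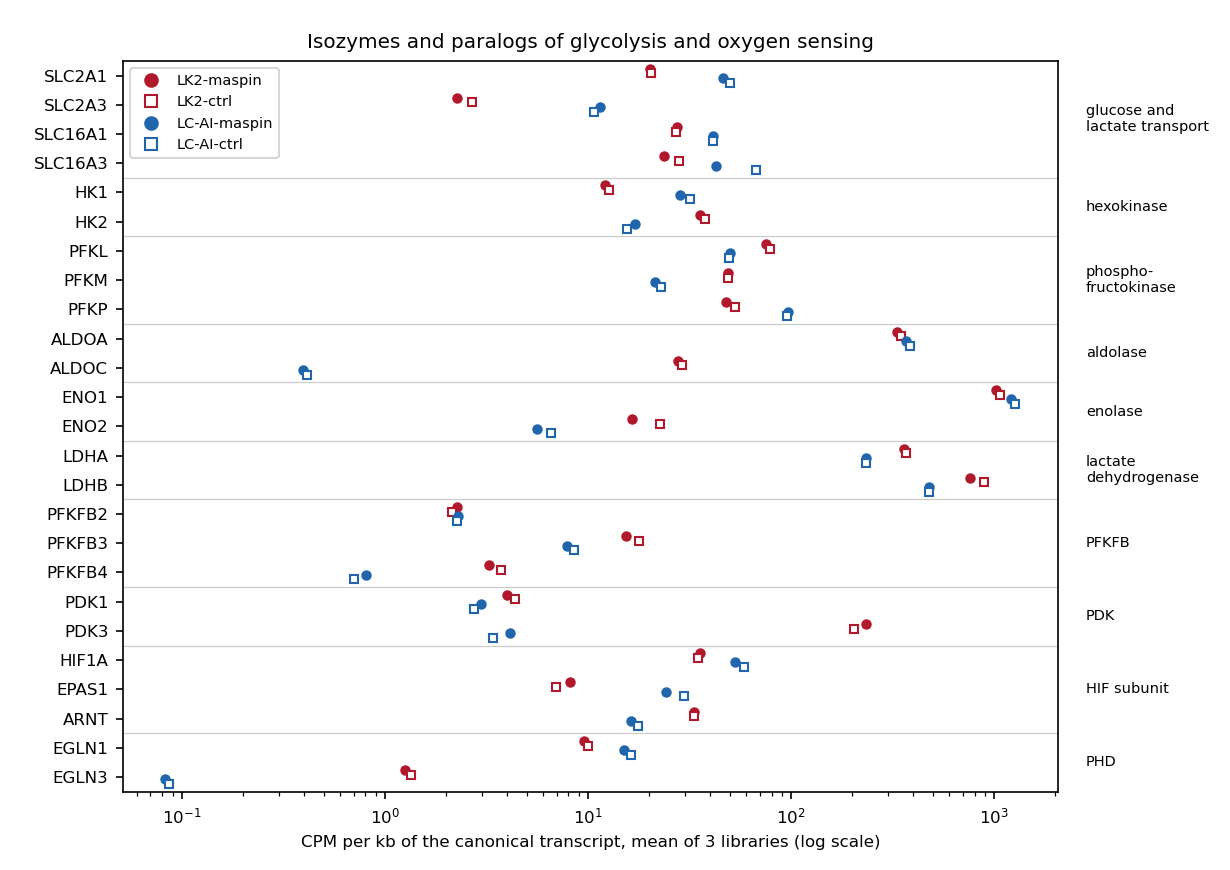
Mean level of isozymes and paralogs in CPM per kb of the canonical transcript (log scale, n = 3 libraries a group), for LK-2 (red) and RERF-LC-AI (blue) cells with maspin (filled circles) or ctrl (open squares). HK2 exceeds HK1 in LK-2 cells and HK1 exceeds HK2 in RERF-LC-AI cells, and PDK3 reaches 234 and 204 CPM per kb in LK2-maspin and LK2-ctrl cells against 4.13 and 3.41 in LC-AI-maspin and LC-AI-ctrl cells.

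In addition, 7 lists around the same pathways were counted. In LK-2 cells 0 of their 114 genes tested were called, against 0.533% of all genes. At an unadjusted p under 0.05 there were 10, against 3.63% higher and 2.73% lower of all genes. DESeq2 called 1 and the likelihood ratio test 2. In RERF-LC-AI cells 11 of 114 were higher and 16 lower, against 4.01% and 6.53% of all genes, and 14 and 12 when scaled by library totals alone. Of 14 other glucose and lactate transporters, 3 fell and 0 rose. They were SLC16A7 (MCT2, a high-affinity monocarboxylate carrier), at 11.9 ± 1.01 CPM in LC-AI-maspin and 22.0 ± 0.937 CPM in LC-AI-ctrl cells (−0.89, SE 0.08, adjusted p = 2.9e-09), SLC2A10 (−0.31, adjusted p = 0.029) and BSG (−0.16, adjusted p = 0.023). BSG encodes basigin, the chaperone that MCT1 and MCT4 need to reach the membrane. Of 15 other glycolytic enzymes 0 were called, with 3 at an unadjusted p under 0.05, against 9.32% higher and 11.5% lower of all genes.

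Of 13 genes for the entry of pyruvate into mitochondria, 4 fell and 1 rose in RERF-LC-AI cells. PC, pyruvate carboxylase, averaged 19.0 ± 1.61 CPM in LC-AI-maspin and 31.9 ± 1.75 CPM in LC-AI-ctrl cells (−0.75, SE 0.07, adjusted p = 9.1e-09). DLAT, the E2 subunit of pyruvate dehydrogenase (−0.21, adjusted p = 0.0038), MPC2, a subunit of the mitochondrial pyruvate carrier (−0.21, adjusted p = 0.011), and PDP1, a pyruvate dehydrogenase phosphatase (−0.21, adjusted p = 0.029), fell less, and PCK2, the mitochondrial PEP carboxykinase, rose (0.25, adjusted p = 0.0040). In the pentose phosphate pathway TALDO1 rose (0.22, adjusted p = 0.0022) and H6PD fell (−0.18, adjusted p = 0.027), out of 8. Of 12 glycogen genes PYGL, the liver glycogen phosphorylase, fell (−0.31, adjusted p = 6.9e-05) and GBE1, the branching enzyme, rose (0.19, adjusted p = 0.048).

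Of 12 other oxygen sensing genes, 1 rose and 2 fell in RERF-LC-AI cells. VHL, whose protein marks HIF α subunits for destruction, averaged 462 ± 9.17 CPM in LC-AI-maspin and 325 ± 23.2 CPM in LC-AI-ctrl cells (0.51, SE 0.05, adjusted p = 1.9e-08). CITED2, which competes with the HIF α subunits for the coactivator p300, averaged 285 ± 28.5 CPM in LC-AI-maspin and 419 ± 37.3 CPM in LC-AI-ctrl cells (−0.55, SE 0.06, adjusted p = 1.7e-07). ELOC, a partner of VHL in its ligase, fell as well (−0.25, adjusted p = 9.4e-04). The other hypoxia targets moved both ways, with 7 of 40 higher and 5 lower. DDIT4 (0.68), STC2 (0.49), HMOX1 (0.48), VEGFA (0.45), MXI1 (0.31), BHLHE40 (0.30) and PLOD2 (0.16) rose, while RAB20 (−0.78), LOX (−0.44), ZNF395 (−0.30) and JMJD6 (−0.20) were among those that fell, these values being log2 fold changes with adjusted p of at most 0.0295. DDIT4, an inhibitor of mTORC1, had 258, 287 and 263 CPM in LC-AI-maspin and 190, 155 and 158 CPM in LC-AI-ctrl libraries. The rise of VEGFA, with 116, 116 and 115 CPM in LC-AI-maspin and 91.8, 79.0 and 83.1 CPM in LC-AI-ctrl libraries, stood beside the fall of ADM in the same libraries, so that known HIF targets did not move in 1 direction.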

How the data were processed

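Reads were cleaned by the authors with Trimmomatic 0.39 and aligned with BWA 0.7.17 to GRCh38.p13, and a table of counts of mapped reads per gene was deposited for each line. How reads were assigned to genes was not stated in any source read here. The deposited signal columns, 24 in all, hold these counts scaled by the authors and were not used. Lines without a gene symbol (646, at most 0.415% of the counts) were left out. Each line was fitted with edgeR 4.0.16 (quasi-likelihood F test, R 4.3.3, limma 3.58.1, statmod 1.5.0), TMM factors, filterByExpr at its default (count of 10, total of 15) and Benjamini–Hochberg adjustment at 0.05. The authors' own test was the likelihood ratio test of edgeR 3.16.5, here an alternative. The difference between lines was an interaction over 12 libraries. Libraries of 1 group differed by more than counting noise. Alternatives were the likelihood ratio test, DESeq2 1.42.0, RLE, upper-quartile and no factors, other filters, 1 fit of all libraries, a stricter adjusted p of 0.01, a replicate block and leave-one-out fits. The tests were tried on simulated data. The 40 genes, the lists and the naming rule (all members, and up to 4 genes of a list in each line with the smallest adjusted p, plus the list genes called or described beside them, named after their values were seen) were chosen with earlier results of these data known. The values of 1 gene of a list are not reported here. Tables and plots used Python 3.11.15, pandas 2.3.3 and matplotlib 3.10.9.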

Additional observations from a re-analysis of the deposited data

Results flagged for a closer look

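Of the genes described here, 5 responded to maspin differently in the lines by the interaction test. They were 1 of the 40 members, lower in RERF-LC-AI cells, and 2 higher and 2 lower of the 116 list genes tested. Over all 28123 genes tested the shares were 0.402% higher and 1.35% lower. The effect in RERF-LC-AI minus that in LK-2 cells, on the log2 scale, was −0.52 for EPAS1 (adjusted p = 0.0081, edgeR), −0.67 for SLC16A7 (0.0056), −0.69 for PC (0.0033), 0.62 for VHL (0.00046) and 0.49 for STC2 (0.014). HK2 was higher in every LC-AI-maspin than in every LC-AI-ctrl library and lower in every LK2-maspin than in every LK2-ctrl library, and the difference of its effects (0.21, SE 0.07) did not pass the test (adjusted p = 0.21).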

How the results depend on the processing

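A tally of single members under the alternatives took in both lines and, for the difference between lines, EPAS1 alone. It left out the threshold of 0.01. Of its 1200 log2 fold changes, 1148 kept their side of the threshold, 17 lost the call and 35 gained one. Calls that other members gained for the difference, such as NDRG1 and LDHB, are not among the 35. No called value changed sign (0), while 79 of the 1148, none of them called, did. In LK-2 cells 140 genes were called. The count was 314 by the likelihood ratio test, 272 by DESeq2 and 251 where 1 fit held all 12 libraries. The stricter threshold of 0.01 left 70, with 0 members lower. In RERF-LC-AI cells 2655 were called, but 1163 in the fit of all 12, with 2 members lower, and 1642 at the stricter threshold, with 4 members lower. Scaling by upper quartiles, or by library totals alone, called 1 member higher (HK2) each. For the difference between lines 494 genes were called, 884 by the likelihood ratio test, 1024 by DESeq2 and 196 at the stricter threshold, and the same scalings called 2 members each (EPAS1 and LDHB). Leaving out each library in turn gave 50 to 199 genes and 0 to 2 members lower in LK-2 cells, 1764 to 2594 genes and 4 to 8 members lower in RERF-LC-AI cells, and 275 to 754 genes and 1 to 2 members for the difference. The count of genes was lowest without LK2-ctrl replicate 2 in LK-2 cells and without LC-AI-maspin replicate 3 in RERF-LC-AI cells and for the difference. Beyond the smaller number of libraries in these fits, causes of the shifts were not tested.

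With the replicate number as a block, 1190 genes were called in LK-2, 4081 in RERF-LC-AI cells and 2273 for the difference. By direction these were 693 higher and 497 lower of 26270 in LK-2 cells, and 1598 higher and 2483 lower of 25197 in RERF-LC-AI cells. For the difference they were 830 higher and 1443 lower of 28123. Of the 39 members tested in LK-2 cells 3 were then higher (EPAS1, PDK3 and NDRG1) and 8 lower (ADM, GAPDH, LDHB, ENO2, TPI1, PFKFB3, BNIP3 and PFKP). Of the 40 in RERF-LC-AI cells 1 was higher (HK2) and 14 lower. For the difference 8 of 40 were called, which were EPAS1, NDRG1 (−1.14, SE 0.15, adjusted p = 1.6e-06), SLC16A3 (−0.48, SE 0.08, adjusted p = 1.5e-04), LDHB, GAPDH, HK2, PGK1 and PKM. Under the block SLC16A3 came to −0.17 in LK-2 cells (SE 0.06, adjusted p = 0.059). The labels do not say that a number marks a shared culture or day, and the rule chosen for pairing by number was not met over all genes tested. Deviations of equally numbered libraries correlated over all genes tested at 0.154, 0.0144 and 0.164 in LK-2 and 0.0437, 0.0533 and 0.00167 in RERF-LC-AI cells, and over genes with a mean log2 CPM over 3 at 0.744, 0.113 and 0.750 and at 0.369, 0.39 and 0.203. Over the genes above that level the closest LK2-maspin library to LK2-ctrl replicate 2 was replicate 1 (0.180). Over all genes tested it was replicate 2 (0.0144), while LC-AI-maspin replicate 3 was closer to LC-AI-ctrl replicate 1 (0.0116) than to replicate 3 (0.00167). So not every library correlated best with its own number, and any pairing by number is only hinted at by the data. The depth limits CA9, EGLN3 in RERF-LC-AI and NDRG1 in LK-2 cells, which had few counts.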
